A study of Mus musculus with 12 samples.

Results

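The genes described here are *Lin28a*, *Lin28b*, *Trim71*, *Igf2bp1*, *Igf2bp2*, *Igf2bp3*, *Hmga1* and *Hmga2*, 8 genes that were chosen by name as regulators of fetal growth that are also expressed in tumors. The choice was made with earlier results of these data known. All 8 were among the 51825 genes of the CPM table, and 7 of them, all but *Lin28a*, were among the 16152 genes of the table of raw counts. RNAseq was performed on whole lungs of wild-type C57BL/6 mice of both sexes, untreated, at 2 embryonic (E15.5, E18.5) and 2 postnatal (P5, P8) stages, named by the embryonic or postnatal day, with 3 replicates at each time-point and 12 libraries in all. Each time-point was sampled from a single litter, so litter and age cannot be told apart. The p-values of comparisons between time-points measure the spread between littermates. Each library had between 48436716 and 62279460 mapped reads, so that 1 read was worth between 0.0161 and 0.0206 CPM, the reads of a gene scaled to the mapped reads of its library. Markers of lung epithelium (6 of 6), mesenchyme (6 of 6) and endothelium (4 of 4) were all detected. Marker genes of neighbouring organs were high in some libraries. The summed level of 12 thymus and T cell genes was 253 and 474 CPM in P8 replicates 1 and 2 and 45.3 CPM in E15.5 replicate 2, against 4.50 to 29.7 CPM in the other 9 libraries. Heart muscle genes (7) summed to 1184 and 1485 CPM in E15.5 replicates 1 and 2 and to at most 409 CPM in any other library, and squamous epithelium genes (5) to 739 and 562 CPM in P8 replicates 1 and 2 and to at most 25.8 CPM in any other. Skeletal muscle genes (7) summed to 420, 112 and 124 CPM in P8 replicates 1 and 2 and P5 replicate 3, against 1.84 to 39.6 CPM in the other 9, and liver genes (6) to 11.2, 96.0 and 32.1 CPM in the P8 libraries and to at most 3.86 CPM in any other.

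LIN28A and LIN28B are RNA-binding proteins that block the maturation of let-7 microRNAs, and let-7 in turn represses the mRNAs of both. The same microRNAs repress *Trim71* (also called Lin41), an RNA-binding protein of early embryonic cells, *Hmga2*, a protein that bends DNA in chromatin, and members of the Igf2bp family, which bind mRNAs such as that of the growth factor *Igf2* and affect their stability and translation. The double-negative loop of Lin28 and let-7 is a textbook switch of developmental timing, and its components are expressed in fetal tissues, fall as tissues mature and reappear in many tumors.

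The microRNA sequences are shown first because their seed, bases 2 to 8 from the 5′ end (capitals), is the part that pairs with a target. In the RefSeq table (GRCm38.p6), 11 mature names from 13 genes shared the seed GAGGUAG, and the 4 forms below differ only outside it.
mmu-let-7a-5p: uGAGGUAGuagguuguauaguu
mmu-let-7d-5p: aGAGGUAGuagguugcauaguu
mmu-let-7g-5p: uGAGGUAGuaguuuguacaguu
mmu-miR-98-5p: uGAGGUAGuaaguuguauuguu

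The reverse complement of this seed, CTACCTC, was searched on the sense strand of the longest annotated 3′ UTR of each gene (GRCm38, the assembly also named mm10). It was present in all 8 genes, against 9.897% of the 20955 genes with a 3′ UTR. There were 21 matches in the 8 genes, and 13 of them had an A after the match, which gives the 8-base form CTACCTCA. *Lin28b*, *Trim71*, *Igf2bp1* and *Hmga2* had 4 matches each, which made them 4 of only 12 genes in the annotation with 4 or more. *Lin28a* had 2, and *Igf2bp2*, *Igf2bp3* and *Hmga1* had 1 each. Long 3′ UTRs hold more matches by their length, and among genes with a 3′ UTR of 0.8 to 1.25 times the length, as many matches as in the gene itself were found in 0.1982% for *Lin28b*, 0.3375% for *Trim71*, 0.1567% for *Igf2bp1* and 0.07321% for *Hmga2*. For *Lin28a* this share was 2.232%, and for *Igf2bp2*, *Igf2bp3* and *Hmga1* it was 12.71%, 14.3% and 8.676%. A match is a stretch of letters and not a measured site. *Lin28a*, *Lin28b*, *Trim71*, *Hmga2* and members of the Igf2bp family are known let-7 targets, so matches in them follow in part from the choice of genes. The shares are therefore descriptions and not tests.

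One match of each gene is printed below with the 16 bases before it, 5′ to 3′ on the gene's own strand, with the match in capitals. For *Trim71* 2 are shown, because they start 26 bases apart.
Lin28a, chr4:134005189-134005212, minus strand: tgcacagcctgttgaaCTACCTCA
Lin28b, chr10:45381022-45381045, minus strand: cacccgggcgggaagtCTACCTCA
Trim71, chr9:114509047-114509070, minus strand: gtttagtatggattttCTACCTCA
Trim71, chr9:114509021-114509044, minus strand: tttggcaaaaagttgtCTACCTCA
Igf2bp1, chr11:95961778-95961801, minus strand: tgctgtgcgaagtaaaCTACCTCA
Igf2bp2, chr16:22059473-22059496, minus strand: aacacacaaataaaagCTACCTCA
Igf2bp3, chr6:49086787-49086810, minus strand: gtgcatttttactcaaCTACCTCA
Hmga1, chr17:27563276-27563298, plus strand: ctcctctgttcacaaaCTACCTC
Hmga2, chr10:120364224-120364247, minus strand: cgccgacattcaatttCTACCTCA

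To ask when these genes change, each time-point was compared with the next one and E15.5 with P8. All 7 genes with counts fell across birth, the interval between E18.5 and P5, by 3.17-fold (*Igf2bp3*) to 31.0-fold (*Lin28b*). In whole lungs, fewer cells that express a gene and less RNA of it per cell cannot be told apart. No gene of the 7 changed past both cutoffs before birth (E15.5 to E18.5), and 1, *Trim71*, did so after birth (P5 to P8). Before birth 5 of the 7 had an unadjusted edgeR p under 0.05 and 3 (*Igf2bp2*, *Igf2bp3* and *Hmga2*) an FDR under 0.05, all 3 downwards. The shares of all genes under either of these cutoffs alone were not counted, so these numbers have no background. With DESeq2 or limma 0 of the 7 were called before birth as well. E15.5 replicate 3, in which heart muscle genes were at 60.1 CPM, lay above every E18.5 library for *Igf2bp2*, *Igf2bp3* and *Hmga2*. The part of heart tissue in the E15.5 values was not tested. Both cutoffs had to be passed for a call, an absolute log2 fold change above 1 and an edgeR FDR, adjusted over the 15994 genes tested, under 0.05. Of all genes tested, 3.04% were called in either direction before birth, 9.34% were called lower and 17.5% higher at P5 than at E18.5, 0.0875% lower at P8 than at P5, and 11.5% lower at P8 than at E15.5. The 7 of 7 called lower across birth and the 7 of 7 over the whole course compare with these 9.34% and 11.5%. *Lin28b* and *Trim71* reached 1 CPM in 3 libraries, the level needed for testing, only through their embryonic libraries. Their place among the 7 thus depended on a high embryonic level, and *Lin28a* did not pass this filter. The counts are therefore descriptions and not tests of the group. The median log2 fold change of the 7 genes across birth was -2.94, where that of all genes was 0.00 (-0.0024). The 7 calls were also made without P5 replicate 3, the P5 library highest in skeletal muscle genes.

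Markers of the lung's own cell types moved over the same interval. All 4 endothelial markers were called higher at P5 (median log2 fold change 1.21), and their summed level was 847 to 928 CPM in the E18.5 and 1833 to 1950 CPM in the P5 libraries. Of 6 epithelial markers, the surfactant protein genes *Sftpc* (3.20) and *Sftpb* (4.32) were called higher, and *Sox9* (-2.99), which marks distal progenitors, and *Epcam* (-1.62) were called lower. Their sum, most of it *Sftpc*, was 1780 to 2697 CPM and then 14084 to 16007 CPM. Of 6 mesenchymal markers, *Tcf21* (1.07) was called higher, and the sums of 1635 to 1807 CPM and 1609 to 1768 CPM overlapped. No marker of the 3 lists was at 0. The part of such shifts in the fall of the 7 genes was not tested.

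**Figure D1:**
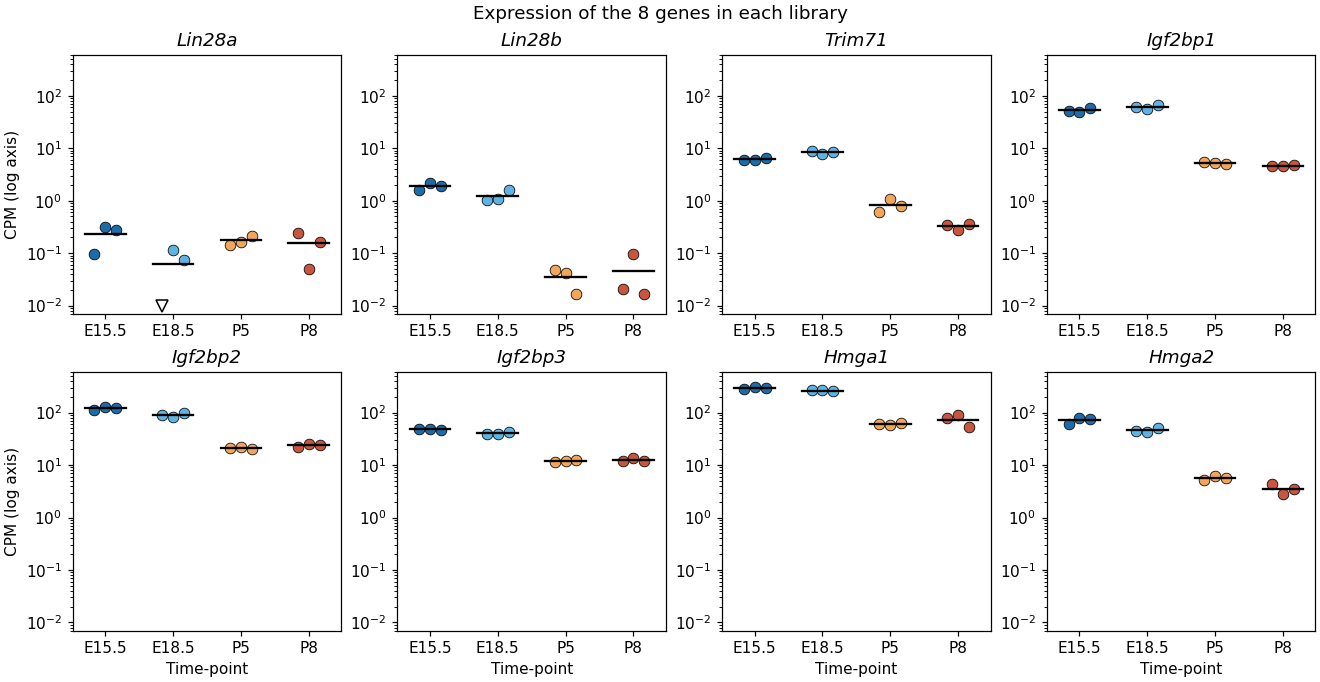
CPM of the 8 genes in each library (points, n = 3 per time-point, log axis) with the mean of each time-point (bars). The open triangle marks the E18.5 library without a *Lin28a* read. For the 7 genes other than *Lin28a*, each embryonic library lies above each postnatal library. How many of all genes separate in this way was not counted.

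*Lin28b* (ENSMUSG00000063804, chr10:45376620-45486395) had the higher level of the Lin28 paralogs in the embryonic lungs. The 3 E15.5 libraries had 1.598, 2.16 and 1.95 CPM, and those of E18.5 had 1.03, 1.07 and 1.57 CPM. At P5 the libraries held 3, 2 and 1 reads of it, and at P8 1, 6 and 1 reads, which is at most 0.0980 CPM. The embryonic and postnatal libraries did not overlap, and the postnatal ones were at or close to the limit of detection of 3 reads. Across birth its log2 fold change was -4.95 (standard error, SE, 0.53, edgeR FDR = 3.6e-06), but its size depends on how these few reads are treated. With the reads of each time-point pooled, 192 at E18.5 and 6 at P5, the level fell 35.3-fold (exact 95% interval 15.9 to 97.4, covering counting error only). Before birth its log2 fold change was -0.63 (SE 0.37), not past the FDR cutoff (edgeR FDR = 0.24), although the libraries of the 2 time-points did not overlap. From P5 to P8 no change was detectable at this depth.

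*Lin28a* (ENSMUSG00000050966, chr4:134003330-134018841), the paralog best known from pluripotent cells, was low at all 4 time-points, with at most 16 reads in a library. It had 6, 16 and 14 reads in the E15.5 libraries, 0, 6 and 4 at E18.5, 9, 8 and 13 at P5 and 12, 3 and 10 at P8. The highest value was 0.315 CPM and the library with 0 reads allows a level of up to 0.0616 CPM. The embryonic and postnatal libraries overlapped, unlike those of *Lin28b*. In a fit of the reads recovered from the CPM table, which covered 22429 genes, its log2 fold change was -1.78 (SE 0.92) before, 1.503 (0.92) across and -0.21 (0.86) after birth. None of these was past the cutoff (edgeR FDR = 0.23, 0.19 and 0.92). Each of the 3 P5 libraries had more *Lin28a* CPM than each E18.5 library, which is the opposite order to the other 7 genes.

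*Trim71* (ENSMUSG00000079259, chr9:114507133-114564369) was at 5.89, 5.88 and 6.59 CPM in the E15.5 and at 9.03, 7.64 and 8.30 CPM in the E18.5 libraries. These libraries did not overlap, and the log2 fold change was 0.45 (SE 0.19), short of the FDR cutoff (edgeR FDR = 0.10). At P5 the levels were 0.610, 1.09 and 0.805 CPM, 9.43-fold lower than at E18.5 (log2 fold change -3.24, SE 0.21, edgeR FDR = 4.9e-08). At P8 they were 0.349, 0.278 and 0.362 CPM, again below every P5 library. *Trim71* was 1 of the 14 genes among 15994 called lower at P8 than at P5 (log2 fold change -1.35, SE 0.23, edgeR FDR = 0.0041). This call was lost with limma on log2(CPM + 1), an offset that compresses low values (-0.46, FDR = 0.026). Without the 3 libraries highest in thymus genes, which leaves 1 P8 library whose spread is assumed to be that of the other time-points, the value was -1.22 (edgeR FDR = 0.09).

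The Igf2bp genes, also called IMPs, code for 3 related RNA-binding proteins that share a set of RNA-binding domains. *Igf2bp1* (ENSMUSG00000013415, chr11:95957163-96005940) had 51.9, 49.7 and 58.6 CPM in the E15.5 libraries and 60.9, 55.8 and 65.3 CPM in those of E18.5. The P5 libraries had 5.43, 5.29 and 4.98 CPM and those of P8 had 4.49, 4.51 and 4.77 CPM. The 2 embryonic time-points overlapped, and the step to P5 was 10.9-fold (log2 fold change -3.45, SE 0.091, edgeR FDR = 1.2e-10). Only 57 of the 15994 genes, itself included, had a log2 fold change as low or lower over this interval. After birth its log2 fold change was -0.21 (SE 0.091, edgeR FDR = 0.13).

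*Igf2bp2* (ENSMUSG00000033581, chr16:22059009-22163299) is the family member that stays expressed in many adult tissues. Its levels were 110, 128 and 122 CPM in the E15.5, 89.0, 83.8 and 97.3 CPM in the E18.5, 21.1, 22.1 and 20.4 CPM in the P5 and 22.2, 25.2 and 23.9 CPM in the P8 libraries. It fell 4.0-fold across birth (log2 fold change -1.999, SE 0.077, edgeR FDR = 1.4e-09). The lower level at E18.5 than at E15.5 was past the FDR cutoff but not the fold cutoff (log2 fold change -0.41, SE 0.074, edgeR FDR = 0.0034).

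*Igf2bp3* (ENSMUSG00000029814, chr6:49085223-49214957), the family member best known from tumors, fell least of the 7 across birth. Embryonic libraries held 48.3, 48.7 and 46.2 CPM (E15.5) and 39.9, 39.3 and 42.3 CPM (E18.5), and postnatal ones 11.6, 11.8 and 12.6 CPM (P5) and 11.8, 13.8 and 11.8 CPM (P8). The log2 fold change was -0.23 before birth (SE 0.063, edgeR FDR = 0.023) and -1.67 across it (SE 0.065, edgeR FDR = 1.5e-09). After birth it was 0.03 (edgeR FDR = 0.77). The gene shares 1529 exon bases, 18.7% of its exons, with *Malsu1* on the opposite strand, and whether the counting used strand is not given in the sources used here. *Malsu1* was at 14.0 ± 1.34 CPM (SD, n = 3) at E18.5 and 11.7 ± 0.896 at P5 (log2 fold change -0.17, edgeR FDR = 0.18). Its part in the *Igf2bp3* values was not tested.

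*Hmga1* (ENSMUSG00000046711, chr17:27556497-27563674) and *Hmga2* (ENSMUSG00000056758, chr10:120361275-120476469) code for small chromatin proteins that bind AT-rich DNA through AT-hook motifs. *Hmga1* had 285, 308 and 299 CPM in the E15.5, 266, 265 and 260 CPM in the E18.5 and 61.4, 57.4 and 62.2 CPM in the P5 libraries. The E15.5 and E18.5 values differed by a log2 fold change of -0.17 (edgeR FDR = 0.40), and across birth the gene fell 4.11-fold (log2 fold change -2.04, SE 0.14, edgeR FDR = 8.1e-08). At P8 the 3 replicates were apart, with 78.3 and 88.8 CPM in replicates 1 and 2 and 53.5 CPM in replicate 3. Replicates 1 and 2 are the libraries with 253 and 474 CPM of thymus and T cell genes, against 29.7 CPM in replicate 3, and their squamous epithelium and skeletal muscle genes were also above those of replicate 3. After birth the log2 fold change was 0.27 (edgeR FDR = 0.19), and it was -0.20 (edgeR FDR = 0.21) without the 3 libraries highest in thymus genes. The part of these tissues in the P8 values of *Hmga1* was not tested.

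*Hmga2* was the only one of the 7 genes that was past the FDR cutoff in all 3 successive intervals, each time downwards. The embryonic libraries had 61.8, 78.0 and 74.2 CPM (E15.5) and 44.7, 43.0 and 51.3 CPM (E18.5), and the postnatal ones 5.25, 6.11 and 5.77 CPM (P5) and 4.37, 2.78 and 3.45 CPM (P8). No library of one time-point overlapped those of the next. The log2 fold changes were -0.62 (SE 0.14, edgeR FDR = 0.0091), -2.94 (0.15, edgeR FDR = 9.2e-09) and -0.71 (0.16, edgeR FDR = 0.012), so that the first and the last were short of the fold cutoff. From E15.5 to P8 it fell 19.2-fold.

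*Hmga1b*, a copy of *Hmga1* on chromosome 11 (chr11:120762794-120764419), is not one of the 8 genes, and its annotated exons cover its whole length. It had between 24.0% and 28.0% as many reads as *Hmga1* in each of the 12 libraries. Its match to the let-7 seed and the 16 bases before it are the same as those of *Hmga1* printed above. Its log2 fold change across birth was -2.05 (SE 0.15, edgeR FDR = 1.5e-07), next to -2.04 for *Hmga1*. The authors kept uniquely mapped reads, so reads that fit both copies may be missing from both, and the levels of the pair are uncertain.

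**Figure D2:**
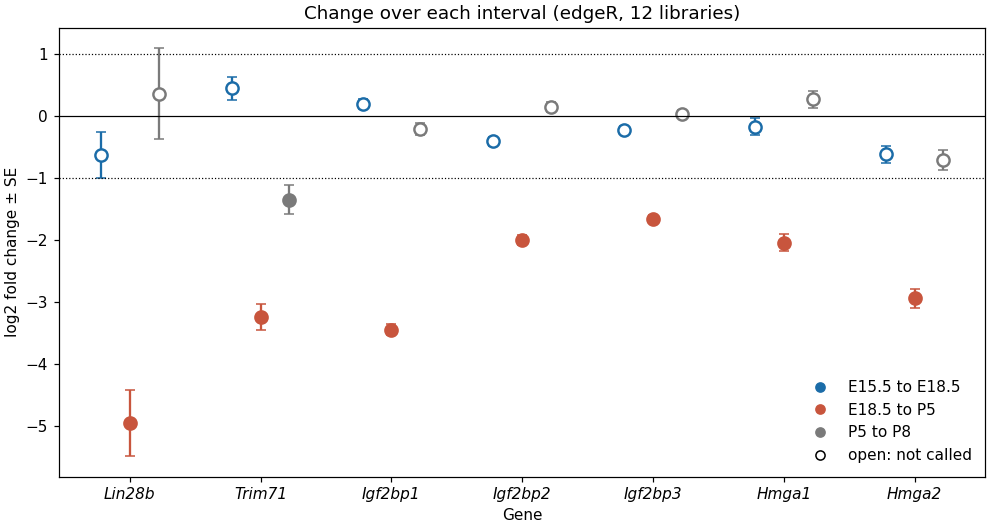
log2 fold change of the 7 genes with counts over the 3 successive intervals (points, with the standard error from edgeR). Filled points are past both cutoffs, and dotted lines mark a log2 fold change of 1 in either direction. All 7 red points (E18.5 to P5) lie between -4.95 and -1.67, and *Trim71* from P5 to P8 is the only other filled point.

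Of the log2 change from E15.5 to P8, the interval across birth held 99.5% for *Igf2bp1*, 94.9% for *Lin28b*, 89.4% for *Igf2bp3* and 88.4% for *Igf2bp2*. For *Hmga1* it was 105.1%, since the P8 mean was above that of P5. That mean rests on P8 replicates 1 and 2 (78.3 and 88.8 CPM), which were high in thymus and squamous epithelium genes. Replicate 3, at 53.5 CPM, was below every P5 library. For *Trim71* it was 78.3%, with a further 32.6% from P5 to P8 and a change in the opposite direction before birth, and for *Hmga2* it was 68.9%, with 14.5% before and 16.7% after. These shares are descriptions and differences between them were not tested.

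Levels of different genes were compared as CPM per kilobase of annotated exon. In this unit *Hmga1* was the highest of the 8 at each time-point, at 124 ± 1.49 (SD, n = 3) at E18.5 and 28.4 ± 1.21 at P5. *Igf2bp2* followed with 12.2 ± 0.918 and 2.86 ± 0.117. At E18.5 the next were *Hmga2* (6.85 ± 0.649) and *Igf2bp1* (6.27 ± 0.489), whose libraries overlapped, and then *Igf2bp3* (4.96 ± 0.192). At P5 the order of these 3 was different, with *Igf2bp3* at 1.47 ± 0.0663, *Hmga2* at 0.843 ± 0.0640 and *Igf2bp1* at 0.540 ± 0.0236, without overlap between neighbours. At the low end were *Trim71* (0.892 ± 0.0747 at E18.5), *Lin28b* (0.135 ± 0.0336) and *Lin28a* (0.0157 ± 0.0146). At P5 *Lin28a* (0.0437 ± 0.00889) was above *Lin28b* (0.00389 ± 0.00184), and at P8 likewise (0.0383 ± 0.0248 and 0.00496 ± 0.00507), the reverse of their embryonic order and without overlap at either time-point. These values rest on 3 to 13 reads of *Lin28a* and 1 to 6 reads of *Lin28b* in a library.

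To ask whether relatives of a family fell by equal amounts, the ratio of their read counts was taken within each library, which does not depend on the normalization between libraries. All 4 ratios were lower in the 6 postnatal than in the 6 embryonic libraries, without overlap. *Igf2bp1*/*Igf2bp2* was between 0.388 and 0.684 before birth and between 0.179 and 0.257 after it, a 2.5-fold lower ratio. *Igf2bp1*/*Igf2bp3* went from 1.02 to 1.54 down to 0.327 to 0.467 (3.22-fold), so that *Igf2bp1* had more reads than *Igf2bp3* in each embryonic library and fewer in each postnatal one. *Igf2bp2*/*Igf2bp3* differed least, with 2.13 to 2.65 before and 1.61 to 2.03 after birth (1.29-fold). *Hmga2*/*Hmga1* went from 0.162 to 0.253 down to 0.0314 to 0.107 (3.02-fold). Each had p = 0.0022 (two-sided exact permutation test, n = 6 and 6, also 0.0022 after Benjamini-Hochberg adjustment over the 4 ratios), the smallest value this test can give. The test treats the libraries as exchangeable, but each side holds 2 time-points of a single litter each. This p therefore does not measure the spread between litters. With E18.5 and P5 alone, the 3 against 3 libraries cannot give a p below 0.10, and each ratio gave that value in the same direction. Over this interval the log2 ratio of *Hmga2*/*Hmga1* changed by -0.89, against -1.596 between all embryonic and all postnatal libraries. The mean of this log2 ratio went down at each step, from -2.07 at E15.5 through -2.51 and -3.40 to -4.37 at P8. At P8 the ratio was 0.056 and 0.0314 in replicates 1 and 2, which were high in thymus and squamous epithelium genes, and 0.0647 in replicate 3.

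**Figure D3:**
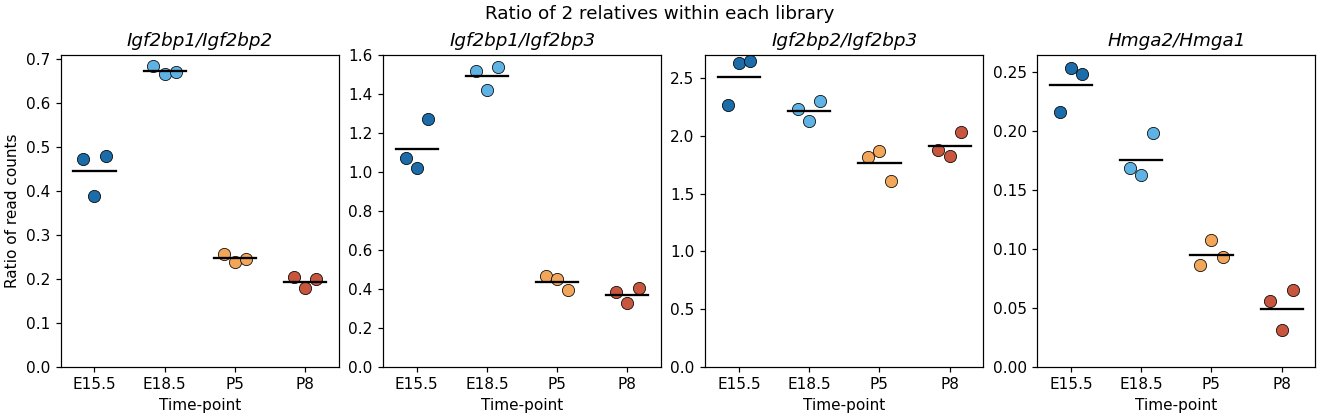
Ratio of the read counts of relatives within each library (points, n = 3 per time-point, with the mean taken on the log scale as a bar). In each of the 4 ratios all postnatal libraries lie below all embryonic libraries, and *Igf2bp1*/*Igf2bp2* is higher in each E18.5 library than in each E15.5 library.

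The ratios also differed within the embryonic period. *Igf2bp1*/*Igf2bp2* was 0.472, 0.388 and 0.480 in the E15.5 libraries and 0.684, 0.666 and 0.671 at E18.5, since *Igf2bp2* was lower and *Igf2bp1* was not. Per kilobase of exon, the 3 Igf2bp genes summed to a mean of 27.6 CPM at E15.5. The sum was 23.4 ± 1.59 CPM (SD, n = 3) by E18.5, 4.88 ± 0.0889 by P5 and 5.21 ± 0.326 by P8. *Igf2bp1* made up 18.1% to 21.5% of that sum in the E15.5 libraries, 26.8% ± 0.399 in those of E18.5, 11.1% ± 0.465 in those of P5 and 9.12% ± 0.642 in those of P8. *Igf2bp2* stayed the largest share, between 51.7% and 62.5% in the 12 libraries. *Igf2bp3* made up 21.3% ± 0.675 at E18.5 and 30.2% ± 1.69 at P5. *Hmga2* made up 6.98% ± 0.544 of the summed Hmga level at E15.5 and 1.56% ± 0.526 at P8.

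Among the 7 genes, the 4 with 4 let-7 seed matches were also those that fell most. Across birth, *Lin28b*, *Igf2bp1*, *Trim71* and *Hmga2* had log2 fold changes of -4.95, -3.45, -3.24 and -2.94, and *Hmga1*, *Igf2bp2* and *Igf2bp3*, with 1 match each, had -2.04, -1.999 and -1.67. The genes with 4 matches also had the longest 3′ UTRs of the 7, 3014 to 6337 bases against 1183 to 2119 bases. The other 8 genes with 4 or more matches were all tested, and 0 of them were called lower over this interval by edgeR and 2 were called higher, *Mcf2l* (7 matches, log2 fold change 1.02) and *Ptafr* (4 matches, 1.44). Their median log2 fold change was 0.26. At an FDR under 0.05 without the fold cutoff, *Hic2* (-0.50, edgeR FDR = 0.0028) and *D10Wsu102e* (-0.79, edgeR FDR = 2.5e-06) were lower. Genes with 0, 1 and 2 matches had medians of 0.02, -0.03 and -0.04 and were called lower in 8.57% of 12624, 8.87% of 1431 and 9.23% of 195 genes. Of the 26 tested genes with 3 or more matches other than the 8 described here, 1 was called lower (3.85%). A part of let-7 in the fall of the 7 genes was not tested.

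**Figure D4:**
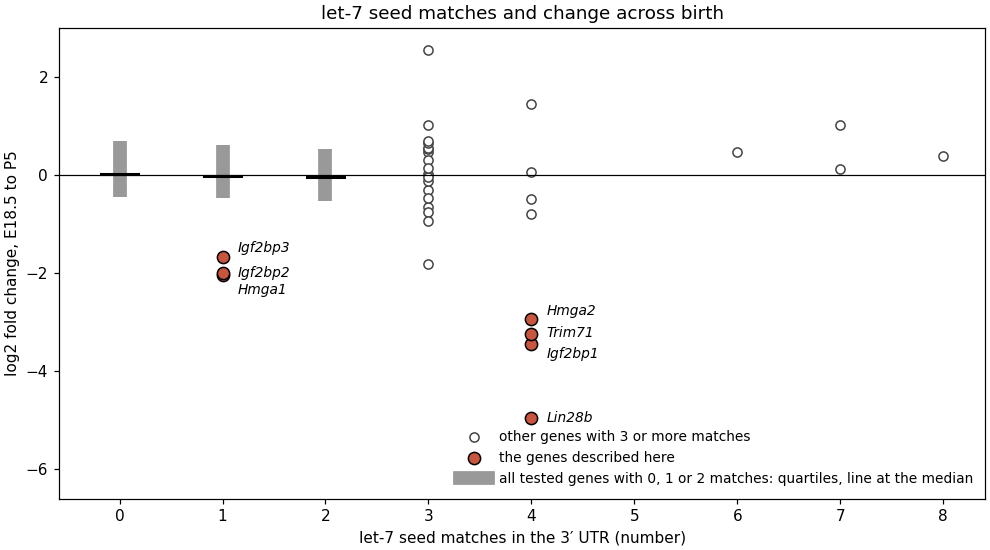
log2 fold change across birth against the number of let-7 seed matches in the 3′ UTR. Grey bars are the quartiles of all tested genes with 0, 1 or 2 matches, open circles are other genes with 3 or more, and red circles are the genes described here. The red circles at 4 matches (-4.95 to -2.94) lie below those at 1 match (-2.04 to -1.67), and the open circles scatter around 0.

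The mRNAs of the let-7 machinery were examined next, since LIN28 proteins act on it. For this list and those that follow, the shares over all genes tested were 9.34% called lower and 17.5% called higher across birth. Of 22 genes of let-7 processing and turnover, all tested, 3 fell and 0 rose past both cutoffs across birth (median log2 fold change -0.42, where that of all genes was 0.00). These were *Ran*, the GTPase of nuclear export (-1.42, SE 0.066, edgeR FDR = 4.6e-09), *Hnrnpa1*, a splicing factor that also binds let-7 precursors (-1.27, SE 0.066, edgeR FDR = 9.3e-09), and *Tut4*. *Tut4*, the uridylyltransferase that LIN28A recruits to let-7 precursors, was at 119.1 ± 8.11 CPM (SD, n = 3) at E18.5 and 55.37 ± 3.26 at P5 (-1.02, SE 0.070, edgeR FDR = 7.1e-08), just past the fold cutoff. *Dicer1*, which cuts the precursor to the mature microRNA, was at 100.1 ± 5.37 and 80.33 ± 2.39 CPM (-0.23, edgeR FDR = 0.012). Of the let-7 host transcripts, 2 were measured, and neither *Huwe1* nor *Mir99ahg* was called. *Huwe1* was past the FDR cutoff but not the fold cutoff (-0.60, edgeR FDR = 0.009), and *Mir99ahg* was past neither (0.01, edgeR FDR = 0.99). Mature let-7 was not analysed here.

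Of 28 known let-7 targets outside the 8 genes, 5 fell and 1 rose across birth (median -0.09). The largest changes were those of the transcription factor *Myc* (-1.45, SE 0.21, edgeR FDR = 4.0e-05), the receptor-like *Igdcc3* (-1.41, SE 0.26, edgeR FDR = 3.7e-04) and the matrix protein gene *Thbs1* (-1.27, SE 0.13, edgeR FDR = 2.3e-06). *Mycn*, which marks distal lung progenitors, had 51.86 ± 3.52 CPM at E15.5 and 34.44 ± 4.19 CPM (SD, n = 3) by E18.5, and its P5 mean was 15 ± 1.13 CPM. Its log2 fold changes were -0.59 (edgeR FDR = 0.0020) and -1.11 (edgeR FDR = 4.4e-07). *Arid3b* rose (1.26, edgeR FDR = 7.1e-06), and *Hras*, *Ccnd1*, *Ccnd2* and *Cdk6* lay between -0.08 and 0.10 and were not called.

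Of 11 transcripts known to be bound by Igf2bp proteins, 3 fell and 2 rose across birth (median -0.03). *Igf2*, the fetal growth factor after which the family is named, had 1435 ± 108 CPM (SD, n = 3) at E18.5 and 99.05 ± 6.88 CPM at P5 (log2 fold change -3.77, SE 0.27, edgeR FDR = 1.1e-07). *H19*, the noncoding RNA of the same imprinted locus, went from 2955 ± 259 to 263.1 ± 26.2 CPM (-3.40, SE 0.32, edgeR FDR = 1.2e-06). At P8 *Igf2* was at 237, 199 and 97.9 CPM and *H19* at 528, 327 and 170 CPM in replicates 1, 2 and 3, so replicates 1 and 2 were above replicate 3. Both were high in thymus (253 and 474 CPM), squamous epithelium (739 and 562 CPM) and skeletal muscle genes (420 and 112 CPM), and the last 2 sums run in the same order as *Igf2* and *H19*. The part of these tissues was not tested. *Ptgs2*, the cyclooxygenase gene, rose from 0.204 ± 0.156 to 3.158 ± 0.715 CPM (4.01, SE 0.47, edgeR FDR = 7.6e-06). *Actb*, whose mRNA IGF2BP1 carries in neurons and fibroblasts, had a log2 fold change of -0.03 (edgeR FDR = 0.76).

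Other oncofetal and fetal growth genes fell as well, 10 of 18 tested with 0 called higher (median log2 fold change -1.34 across birth). After *Igf2* and *H19* the largest change was that of the imprinted gene *Dlk1*, from 809.1 ± 39.9 to 117.7 ± 12.8 CPM (-2.70, SE 0.091, edgeR FDR = 5.2e-10). Of 20 proliferation genes, 18 fell and 0 rose over the same interval (median -1.34), led by *Bub1* (-1.74), *Ccnb1* (-1.65) and *Birc5* (-1.49). All 20 lay between -1.74 and -0.68, and 6 of the 7 genes described here, all but *Igf2bp3*, had lower log2 fold changes than any of them. Differences between the lists were not tested. The list headed Hmga relatives held 8 measured genes, *Hmga1b* and genes of the Hmgb and Hmgn families, which are not Hmga paralogs. Of these, 5 fell, *Hmga1b* (-2.05), *Hmgb2* (-1.15) and *Hmgb3* (-1.10) by most (median -1.06).

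**Figure D5:**
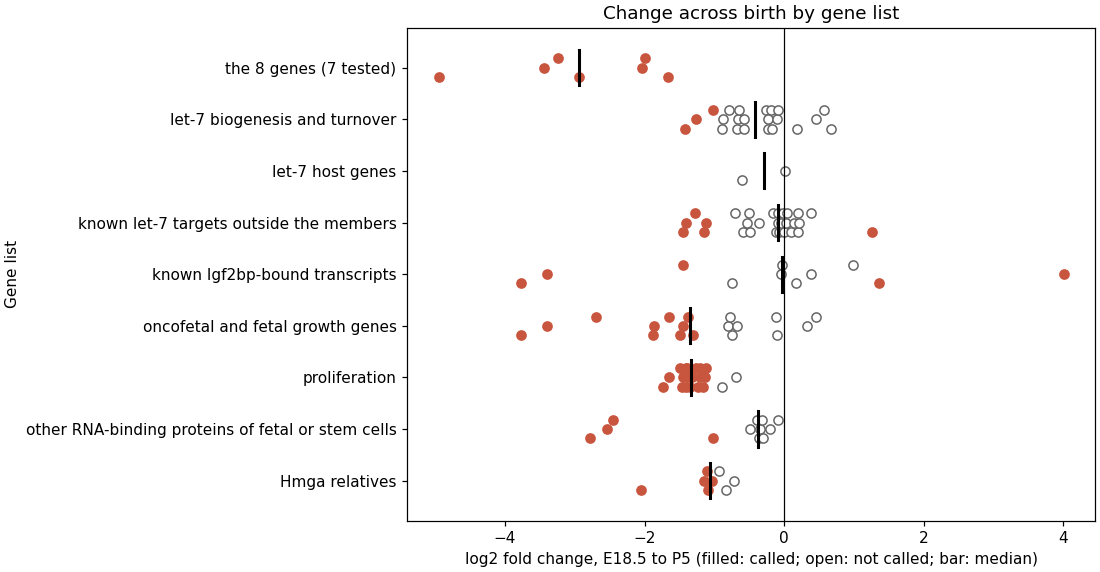
log2 fold change across birth of each tested gene by list (points, filled when past both cutoffs) with the median of each list (bars). The median of the genes described here is -2.94, and those of the other lists lie between -1.34 and -0.03.

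The genes whose log2 CPM followed each of the 7 most closely over the 12 libraries are given here with no test. The 12 points share 4 time-points and the step between E18.5 and P5, which many genes have. For *Lin28b* they were *Cdca8* (Pearson r = 0.996), *Vrk1* (0.996) and *Lsm2* (0.995), and for *Trim71* *Nedd1* (0.994), *Zfp41* (0.993) and *Nnat* (0.993). *Igf2bp1* was closest to *Isoc1* (0.998), the imprinted growth inhibitor *Grb10* (0.998) and *Rps6ka6* (0.997). *Igf2bp2* was closest to *Ssrp1* (0.997), *Cse1l* (0.997) and *Galk1* (0.997), and *Igf2bp3* to *Nudcd1* (0.998), *Pdgfc* (0.998) and *Bud23* (0.998). *Hmga1* was closest to *Hmga1b* (0.998), *Gpt2* (0.996) and *Pgam1* (0.996), and *Hmga2* to *Lrfn4* (0.999), *Mbd3* (0.997) and *Tead2* (0.996). Among the 7 genes themselves r was between 0.915 (*Trim71* and *Hmga1*) and 0.995 (*Igf2bp2* and *Igf2bp3*). A like time course did not mean a like size of change, since *Grb10* fell from 1470 to 326 CPM and *Isoc1* from 283 to 121 CPM between E18.5 and P5, where *Igf2bp1* fell 10.9-fold.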

How the data were processed

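Whole mouse lung RNA was sequenced at 4 time-points (n = 3). The authors aligned paired-end reads to mm10 with TopHat2 (version 2.1.1) and Bowtie2 (version 2.3.4) and counted them on Gencode vM14 genes with HTSeq (version 0.10.0). The deposited raw counts cover the genes with at least 1 CPM in 3 libraries. The deposited CPM values are counts divided by the total mapped reads, and all of them (100%, within 0.01 read) gave whole reads. Depth was 41337443 to 53901957 counts per library on the kept genes. IDs were paired with symbols for 16136 of 16152 genes of the count table and 51632 of 51825 of the CPM table.

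Counts were fitted with edgeR 4.0.16 (R 4.3.3, quasi-likelihood test, TMM, 15994 genes with at least 1 CPM in 3 libraries, 12 libraries in 1 fit, Benjamini-Hochberg FDR). The fit was tested on simulated data. Ratios used counts with 0.5 added. Exon lengths, 3′ UTRs and positions come from GENCODE M21 on GRCm38, and microRNAs from RefSeq. The alternatives used DESeq2 1.42.0, limma 3.58.1, other filters and scalings, and left out libraries.

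The 8 genes and all lists were chosen with earlier results of these data known. From each list, the 3 called genes with the largest change from E18.5 to P5 were named, and *Igf2*, *H19*, *Dicer1*, *Mycn* and *Tut4* in any case. Further genes were named after their values were seen. Likeness was Pearson's r of log2 CPM (prior count 2) among genes with a mean of at least 1 CPM. The deposited PSI values of splicing events were not used, because the events could not be paired with these genes here. Some genes of the lists are counted but not reported here by name.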

Additional observations from a re-analysis of the deposited data

How the results depend on the processing

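The fall of the 7 genes across birth and over the whole course kept its direction under each alternative tried (other scalings and filters, only the 2 time-points compared, the likelihood ratio test, DESeq2, limma, reads recovered from the CPM table, each library left out). All 7 were called each time except under the filter of 5 CPM in 3 libraries, which *Lin28b* does not pass, so that 6 genes were left and all were called. With each library left out in turn, the number called stayed at 0, 7, 1 and 7 before, across and after birth and over the whole course. With an FDR under 0.05 alone, 3 genes were called before birth and 2 after it, and the shares of all genes at this cutoff were not counted. The call of *Trim71* from P5 to P8 was lost, leaving 0, with limma on log2(CPM + 1) (-0.46) and without the 3 libraries highest in thymus genes (-1.22), an alternative chosen after seeing the data. The size for *Lin28b* across birth ranged from -5.02 to -1.09, the latter with limma's offset of 1, which is close to the gene's whole level.

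From P5 to P8, uncalled values changed sign: *Lin28b* (0.36) went to -0.01 without P5 replicate 3, -0.88 without P8 replicate 2 and -1.03 without the 3 thymus-rich libraries. With each library left out in turn, *Lin28b* ranged from -0.88 to 0.76. *Igf2bp3* (0.03) went to -0.0017 without P5 replicate 2, -0.037 without P8 replicate 2 and -0.056 without the 3 (each library left out, -0.037 to 0.062), and *Hmga1* (0.27) to -0.20 without the 3. The ratios with E18.5 and P5 alone were -1.45, -1.78, -0.33 and -0.89 on the log2 scale (*Igf2bp1*/*Igf2bp2*, *Igf2bp1*/*Igf2bp3*, *Igf2bp2*/*Igf2bp3*, *Hmga2*/*Hmga1*), where 0.10 is the smallest p. With each library left out they ranged from -1.42 to -1.26, -1.75 to -1.63, -0.39 to -0.33 and -1.73 to -1.37.

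Replicate numbers are shared across time-points, but same-numbered samples did not deviate together (r from -0.343 to 0.301 over the pairs). With the replicate block, 0, 7, 1 and 7 genes were called, as without it. *Lin28a* and postnatal *Lin28b* are limited by depth.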

Other observations

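Other RNA-binding proteins of fetal or stem cells moved in part like the genes above. Of 15 listed, 12 were tested, and from E18.5 to P5 4 fell and 0 rose past both cutoffs (median log2 fold change -0.38). *Celf4*, a splicing and translation regulator of neurons, went from 7.477 ± 0.551 CPM (SD, n = 3) to 1.024 ± 0.0449 (-2.78, standard error 0.19, edgeR FDR = 7.2e-08). *Msi1* (Musashi), which marks neural and epithelial stem cells, went from 31.07 ± 4.02 to 5.042 ± 0.537 CPM (-2.54, standard error 0.11, edgeR FDR = 2.2e-09). *Elavl4*, a neuronal RNA-stability factor, went from 0.8871 ± 0.0111 to 0.1496 ± 0.0224 CPM (-2.45, standard error 0.42, edgeR FDR = 2.0e-04), and *Elavl2* was the other gene that fell (-1.02). The widely expressed *Pum2*, *Fmr1*, *Fxr1* and *Fxr2* lay between -0.49 and -0.20 and were not called.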
